A study of Mus musculus with 44 samples.

Results

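The peaks described here were called for H3K27ac in nuclei of the paraventricular thalamic nucleus (PVT) and had no called counterpart in cortex (COR), caudate putamen (CP) or nucleus accumbens (NAC). They were the autosomal PVT peaks that shared no base with a peak of the other 3 regions, held at least 2 CPM (the count as a part per 1000000 of the library's column total) in each of the 4 PVT libraries and were not among the 1000 widest PVT peaks. Of 123818 PVT peaks, 121505 were autosomal and 68413 of those overlapped no peak elsewhere, of which 32 were among the widest and 54488 fell below the floor. This left 13893 peaks, 11.4% of the autosomal ones. They were selected on their PVT counts, their widths and their overlaps, so their presence in PVT and absence from the other tables are a description and were not tested.

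The series holds 44 libraries from adult mice. H3K27ac was measured by chromatin immunoprecipitation in 2 Polg(D181A) and 2 WT libraries of each of 4 brain regions, and open chromatin by ATAC-seq in 2 Polg(D181A) and 2 WT libraries of PVT. Nuclei for both assays were sorted after staining for NeuN, a neuronal nuclear protein. RNA from PVT was sequenced in 5 groups of 4 libraries, named by genotype, behavioural state and staining for cytochrome oxidase (COX): Polg(D181A) depressive COX-negative, Polg(D181A) depressive COX-positive, Polg(D181A) euthymic COX-negative, Polg(D181A) euthymic COX-positive and WT euthymic COX-positive. The strain label is C57BL/6 for the H3K27ac and RNA libraries, and reads C57BL/7, C57BL/8, C57BL/9 and C57BL/10 for the 4 ATAC libraries. The 4 input libraries combine both genotypes and were not used here.

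H3K27ac, acetylation of lysine 27 on histone H3, marks active promoters and enhancers, and distal peaks of the mark differ more between cell types than promoter peaks do. The PVT is a midline nucleus of the dorsal thalamus whose neurons use glutamate and express the vesicular transporter Slc17a6 and the calcium-binding protein Calb2, while thalamic neurons as a class express transcription factors such as Tcf7l2 and Rora. Polg encodes the mitochondrial DNA polymerase, and Polg(D181A) mice carry a proofreading-deficient form as a transgene expressed in neurons, a model in which mitochondrial DNA deletions accumulate.

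Among the 13893 peaks, 312 reached the promoter window of a RefSeq gene, 250 bases before to 50 after the start of one of its transcripts. They reached 380 windows searched, and in 300 of those the transcript began within 1000 bp of the gene's own start. The windows of 4 genes are shown because a PVT-only peak reached each of them and because each gene has a known place in thalamic neurons or their signalling. These 4 were picked after the values were seen. Zic1 and Gbx2 encode transcription factors of the developing thalamus, Lef1 a partner of beta-catenin and Plcb4 a phospholipase downstream of metabotropic receptors. The Zic1 and Gbx2 windows precede the gene's own start, whereas those of Lef1 and Plcb4 precede the start of a shorter transcript, 46.0 kb and 106 kb inside the gene. Each line gives the 250 bases before that transcript start, 5′ to 3′ on the gene's strand, from RefSeq on GRCm38.p6, with matches to a searched motif in capitals.
Zic1, chr9:91365769-91366018, minus strand: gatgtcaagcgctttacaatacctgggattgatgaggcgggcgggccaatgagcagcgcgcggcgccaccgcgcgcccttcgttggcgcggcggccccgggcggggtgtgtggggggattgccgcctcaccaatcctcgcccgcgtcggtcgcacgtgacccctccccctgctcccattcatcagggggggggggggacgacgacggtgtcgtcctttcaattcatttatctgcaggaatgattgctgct
Lef1, chr3:131156044-131156293, plus strand: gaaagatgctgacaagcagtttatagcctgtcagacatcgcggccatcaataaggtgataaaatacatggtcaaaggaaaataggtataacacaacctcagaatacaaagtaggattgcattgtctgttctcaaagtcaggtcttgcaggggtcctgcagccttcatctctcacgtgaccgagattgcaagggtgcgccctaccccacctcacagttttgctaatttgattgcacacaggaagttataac
Gbx2, chr1:89931177-89931426, minus strand: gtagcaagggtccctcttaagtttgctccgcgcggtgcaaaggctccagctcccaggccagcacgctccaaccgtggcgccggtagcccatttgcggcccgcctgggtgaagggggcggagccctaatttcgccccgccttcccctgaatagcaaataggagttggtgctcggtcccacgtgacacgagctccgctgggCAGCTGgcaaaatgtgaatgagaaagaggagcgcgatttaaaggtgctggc
Plcb4, chr2:135764588-135764837, plus strand: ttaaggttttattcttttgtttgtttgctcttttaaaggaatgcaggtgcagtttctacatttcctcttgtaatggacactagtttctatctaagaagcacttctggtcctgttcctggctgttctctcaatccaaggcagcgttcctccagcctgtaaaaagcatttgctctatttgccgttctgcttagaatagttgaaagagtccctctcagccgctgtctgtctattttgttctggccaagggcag
Of the 9 motifs searched on both strands, only CAGCTG, an E-box, was found, once, in the Gbx2 window. That match lay outside the PVT-only peak, which covered only the far end of the window. The Zic1 peak covered only the end of its window next to the gene's start. CAGCTG was present in 52 of the 380 promoter windows reached by these peaks (13.7%) and in 12.2% of the 20085 windows searched. The TCF/LEF motifs CTTTGAA and CTTTGAT were present in 3.16% and 2.11% of the windows reached, against 3.98% and 2.85% of all windows, and the homeodomain motif TAATTA in 3.16% against 4.26%. AGGTCA, a nuclear receptor motif, was in 12.9% of both sets, TGANTCA, the AP-1 site, in 19 of the 380 against 6.18%, TGTTTAC, a FOX motif, in 2.11% against 2.64%, TGACGTCA, the CRE, in 2.63% against 1.98% and the MEF2 motif in 0.263% against 0.144%. Median GC content was 57.2% in the windows reached and 56.0% in all windows. A match is a description of these letters only.

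The peak at the Zic1 start held 72.1 and 55.1 CPM in Polg libraries and 81.1 and 35.8 CPM in WT libraries. The peak at the internal Lef1 start held 34.1 and 32.1 CPM in Polg libraries, against 38.9 and 33.0 CPM in WT libraries. A peak of 6762 bp at the start of Prkcd, a protein kinase C gene, held 26.9 and 34.5 CPM in Polg libraries and 41.1 and 61.9 CPM in WT libraries. Prkcd was the one of these 3 in which both Polg libraries lay below both WT libraries. Such a separation is common: Polg libraries lay below in 20.6% of PVT-only peaks and above in 19.4%, against 22.5% and 24.1% of autosomal peaks. The peak at the internal Plcb4 start held 30.9 and 35.0 CPM in Polg libraries and 44.7 and 28.6 CPM in WT libraries, and a peak at the start of Nmbr, the neuromedin B receptor gene, 32.6 and 32.3 CPM in Polg libraries against 24.5 and 7.44 CPM in WT libraries. The peak at Gbx2 entered only the far end of the window, lay nearest to a predicted gene, and held 21.8 and 12.4 CPM in Polg libraries and 15.1 and 23.9 CPM in WT libraries. Of the 4 windows shown, those of Zic1, Gbx2 and Plcb4 held an ATAC peak and that of Lef1 held none.

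PVT-only peaks were narrower and weaker than PVT peaks that overlapped another region. Their median width was 1095 bp (quartiles 658 and 1782 bp), against 1826 bp for the 29565 overlapping peaks that met the same floor and width limit, called shared peaks below. The median CPM per peak, over the 4 libraries, was 7.23 for PVT-only peaks and 12.7 for shared peaks, and the median per kilobase was 7.22 and 7.41 CPM per kb. PVT-only peaks held 13.8% and 14.2% of all PVT counts in the Polg libraries and 14.2% in each WT library. The CPM floor was set by single libraries at its edge, as for the peak in Smyd3, at 6.07 and 4.22 CPM in Polg libraries and 2.00 and 2.64 CPM in WT libraries. A peak in Lca5 just missed it, at 6.43 and 3.75 CPM in Polg libraries and 1.99 and 4.78 CPM in WT libraries. At the width limit, the widest member spanned 9886 bp and the narrowest peak of the 1000 left out 9891 bp.

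Most PVT-only peaks lay away from gene ends. A gene span held 58.4% of them, against 68.6% of shared peaks, and 6.44% lay within 1000 bp of a gene end, against 26.1% of shared peaks. A RefSeq promoter window was reached by 2.25% of PVT-only peaks and by 18.8% of shared peaks. Peaks between genes had a median gap of 53.4 kb to the nearest protein-coding gene, against 24.7 kb for shared peaks. The nearest peak of any other region lay a median of 2067 bp away (quartiles 809 and 4809 bp), at more than 1 kb for 70.4% of PVT-only peaks and at more than 10 kb for 9.31%. A region without a called peak is not a region without acetylation. The PVT libraries held 52759552 to 146450422 counts and had no count in 7.10% to 13.8% of PVT peaks. In a given library, 19.9% to 69.6% of NAC peaks, 28.5% to 80.8% of CP peaks and 15.7% to 41.9% of COR peaks had no count. Library totals ran from 6415127 to 80516545 counts in NAC, 12048787 to 101443484 in CP and 52566179 to 197650530 in COR.

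Thalamic transcription factor genes lay nearest to 207 PVT-only peaks. Of the 29 listed genes, 21 were the nearest gene of at least 1 PVT-only peak (72.4%, against 26.1% of 20665 autosomal protein-coding genes), and 134 shared peaks lay nearest to them. PVT-only peaks made up 60.7% of their peaks, against 32.0% over all genes. The share of genes nearest to at least 1 PVT-only peak was not particular to this list. It was 72.7% for general neuron markers and 76.9% for glutamate and GABA receptor genes, a list that also holds vesicular glutamate transporter genes such as Slc17a6. For ion channel genes it was 78.8%, and for axon guidance and cell adhesion genes 82.3%. The remaining lists were lower, at most 58.3% (astrocyte markers). The choice of peaks used the regions, so these shares are a description with no test. The nearest gene is a landmark and no target was measured.

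**Figure D1:**
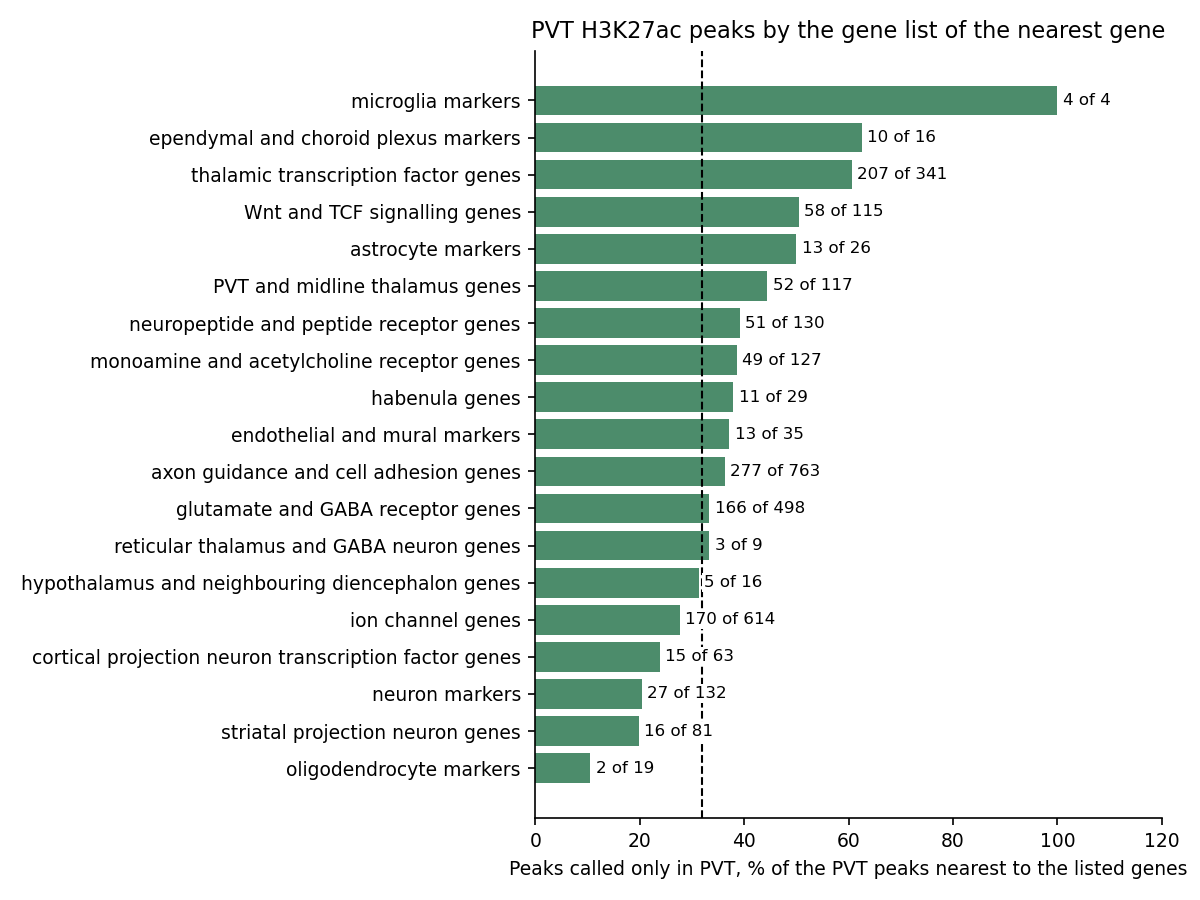
Share of the PVT H3K27ac peaks nearest to the genes of each list that were called only in PVT, in percent of the peaks that met the CPM floor and width limit; the numbers beside the bars are the counts, and the dashed line is the 32.0% found over all autosomal protein-coding genes. Thalamic transcription factor genes stood at 60.7% and striatal projection neuron genes at 19.8%. Microglia markers (4 of 4) and ependymal and choroid plexus markers (62.5%) stood above the thalamic list, and oligodendrocyte markers (10.5%) were lowest.

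Rora, an orphan nuclear receptor, had 40 PVT-only peaks, all inside its span of 735 kb. PVT H3K27ac peaks of any kind covered 293 kb of that span, against 60.1 kb in COR, 19.4 kb in CP and 17.9 kb in NAC. The strongest of the 40, at chr9:69215093-69220902, held 77.2 and 38.5 CPM in Polg libraries, against 53.6 and 50.8 CPM in WT libraries, and the genotypes overlapped. Zfhx3, a zinc-finger homeobox factor, had 35, of which 26 were inside its span, where PVT peaks covered 149 kb, against 16.04 kb in COR, 21.1 kb in CP and 16.5 kb in NAC. Its strongest peak lay 237 kb outside the gene and held 35.0 and 27.9 CPM in Polg libraries and 52.1 and 47.0 CPM in WT libraries. Both Polg libraries lay below both WT libraries there.

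Prox1, a homeobox factor, had 27 PVT-only peaks and 3 shared ones. PVT peaks covered 26.5 kb of its span, COR peaks 0.251 kb, and CP and NAC peaks none. Its strongest peak, 232 kb from the gene, held 59.4 and 52.2 CPM in Polg libraries and 60.1 and 50.9 CPM in WT libraries, and the genotypes overlapped. The run with the most PVT-only peaks also lay at Prox1, 12 peaks over 48.4 kb with no gap above 6185 bp. Over the whole set, neighbours were joined into runs with gaps of up to 12498 bp: 60.4% of PVT-only peaks stood alone and 86 runs held 5 or more. The 4 runs of 10 or more lay at Prox1, Plcb4, Zfp423 and Plekhg1, and the one at Plcb4 spanned 90.6 kb.

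Tcf7l2, the high-mobility-group factor that acts in Wnt signalling and in thalamic identity, had 15 PVT-only and 12 shared peaks. PVT peaks covered 90.4 kb of its span, against 2.75 kb in COR, 4.06 kb in CP and 2.51 kb in NAC. Its strongest PVT-only peak held 68.6 and 43.3 CPM in Polg libraries and 60.2 and 68.7 CPM in WT libraries, without separation of the genotypes, and overlapped no ATAC peak. Zic1 had 13 PVT-only peaks, Rorb 9, Sox2 8, and Foxp2 and Nr2f1 5 each. Zmat4, a zinc-finger gene, had 21, the strongest at 37.9 and 43.5 CPM in Polg libraries and 39.4 and 38.1 CPM in WT libraries. Pou4f1, Irx3 and Nfib were among the 8 listed genes nearest to none.

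**Figure D2:**
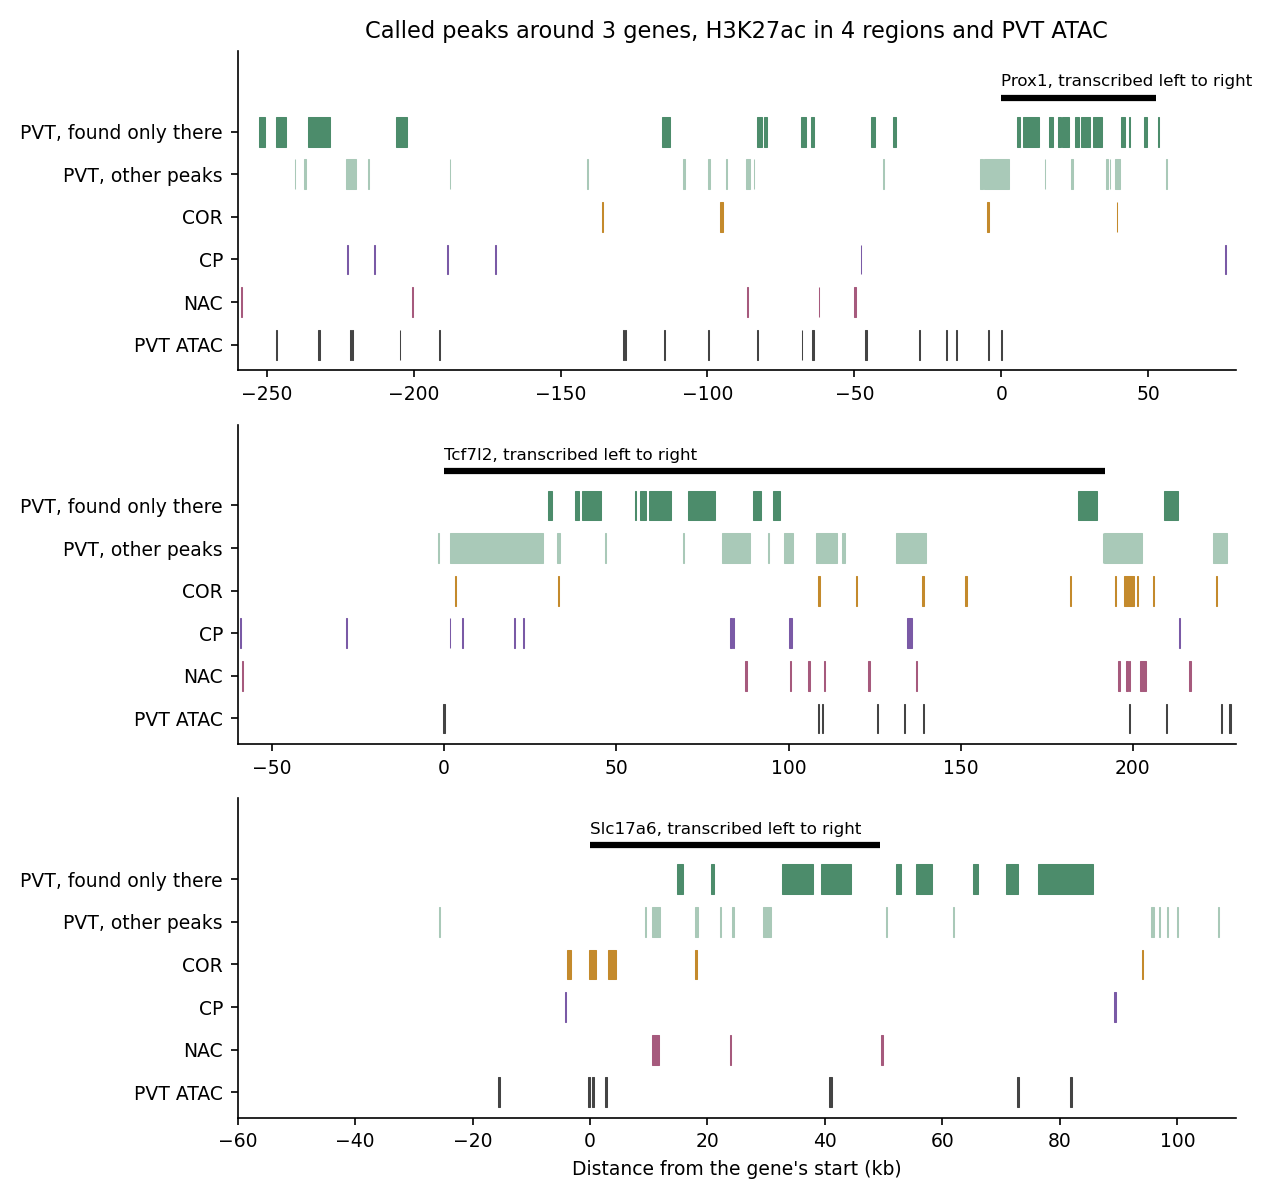
Called peaks around Prox1, Tcf7l2 and Slc17a6, drawn to scale by distance from the start of each gene in kb, with the gene span in black and 1 row each for PVT-only peaks, other PVT peaks, COR, CP, NAC and PVT ATAC peaks. In the window around Prox1, 23 PVT-only peaks and 20 other PVT peaks stood against 4 peaks in COR, 6 in CP and 5 in NAC.

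Wnt pathway genes had 58 PVT-only peaks of 115 (50.4%), at 15 of 34 genes. Of the 58, 15 were nearest to Tcf7l2 and 11 to Lef1, which are also on the list of thalamic transcription factor genes. Lef1 had 11, and PVT peaks covered 33.5 kb of its span, against 0.251 kb in COR, 0.95 kb in CP and 0.564 kb in NAC. The strongest peak nearest to a gene of this list belonged to Fzd8, a Wnt receptor gene 281 kb away, with 125 and 141 CPM in Polg libraries and 114 and 134 CPM in WT libraries. The strongest of 3 peaks nearest to Dkk2, a secreted Wnt inhibitor gene, held 39.9 and 55.0 CPM in Polg libraries and 61.1 and 64.8 CPM in WT libraries, and overlapped 4 ATAC peaks.

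Genes known from PVT and midline thalamus had 52 PVT-only peaks of 117 (44.4%), at 12 of 22 genes. Slc17a6, the vesicular glutamate transporter of thalamic neurons, had 11 PVT-only and 2 shared peaks. Its strongest, 9447 bp wide and 31.7 kb beyond the gene, held 63.0 and 49.8 CPM in Polg libraries and 77.8 and 63.3 CPM in WT libraries, with both Polg libraries below both WT libraries by a narrow margin. The PVT table used here lists no peak at the Slc17a6 start, where ATAC and COR peaks lie. Calb2, which encodes calretinin, had 3, and PVT peaks covered 9.51 kb of its span, against none in COR and CP and 0.471 kb in NAC. The strongest Calb2 peak held 57.5 and 31.3 CPM in Polg libraries and 41.0 and 28.2 CPM in WT libraries. Htr7, a serotonin receptor gene, had 15, led by a peak at 15.9 and 35.8 CPM in Polg libraries and 26.0 and 16.1 CPM in WT libraries, where the genotypes overlapped. The strongest of 7 peaks nearest to Col12a1, a collagen gene, held 42.3 and 31.2 CPM in Polg libraries and 34.7 and 23.7 CPM in WT libraries. Oprm1, the mu opioid receptor gene, had 5, the strongest at 13.4 and 10.8 CPM in Polg libraries and 23.2 and 8.09 CPM in WT libraries. The genotypes overlapped in both. Drd2, Drd3, Cartpt, Npy1r and Oprk1 were nearest to none.

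**Figure D3:**
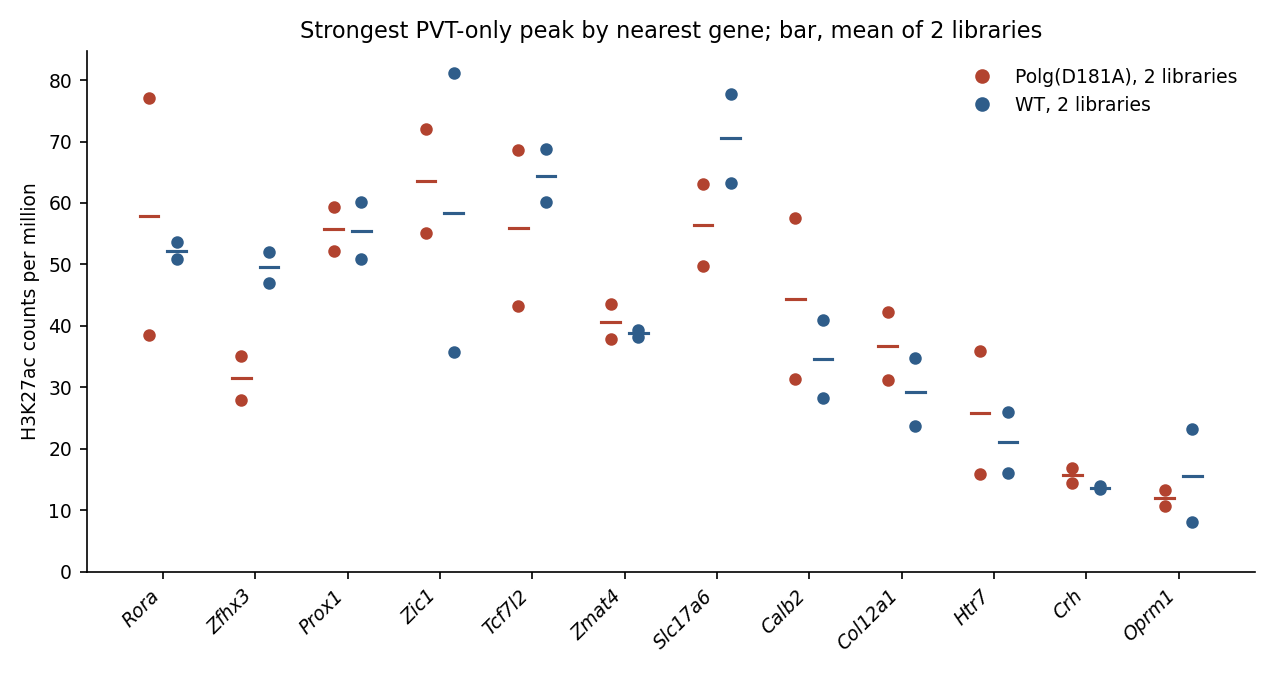
H3K27ac in CPM for the strongest PVT-only peak nearest to each of 6 thalamic transcription factor genes and 6 PVT and midline thalamus genes; points are the 2 Polg(D181A) and 2 WT libraries and bars their means. The genotypes did not overlap at Zfhx3 and Slc17a6, where Polg libraries were lower, and at Crh, where they were higher (16.9 and 14.5 CPM in Polg libraries, 13.9 and 13.5 CPM in WT libraries). Over all PVT-only peaks, both Polg libraries lay below both WT libraries in 20.6% and above both in 19.4%. Over autosomal peaks these shares were 22.5% and 24.1%.

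Receptor, channel and adhesion genes lay between 27.7% and 39.2%, against 32.0% over all genes. Peptide and peptide receptor genes had 51 of 130 (39.2%), led by a peak in Nmbr at 56.5 and 60.2 CPM in Polg libraries and 44.7 and 26.2 CPM in WT libraries. Both Polg libraries lay above both WT libraries in that peak. Vipr2, a receptor of vasoactive intestinal peptide, had a peak of 8943 bp at 41.1 and 35.6 CPM in Polg libraries and 53.1 and 52.9 CPM in WT libraries. Tacr3, a neurokinin receptor gene, had a peak at 37.5 and 39.4 CPM in Polg libraries and 22.7 and 18.8 CPM in WT libraries. Polg libraries were the lower ones at Vipr2 and the higher ones at Tacr3, without overlap. Monoamine and acetylcholine receptor genes had 49 of 127 (38.6%), glutamate and GABA receptor genes 166 of 498 (33.3%), axon guidance and cell adhesion genes 277 of 763 (36.3%) and ion channel genes 170 of 614 (27.7%). Hcn4, a pacemaker channel gene, held a run of 7 PVT-only peaks, and its strongest peak had 29.6 and 32.4 CPM in Polg libraries and 53.1 and 50.7 CPM in WT libraries.

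Genes that mark neurons of the other regions were also nearest to some PVT-only peaks. Cortical projection neuron factors had 15 of 63 (23.8%), striatal projection neuron genes 16 of 81 (19.8%), and general neuron markers 27 of 132 (20.5%). Lists for neighbouring diencephalon had 11 of 29 for habenula genes (37.9%), 3 of 9 for reticular thalamus and GABA neuron genes (33.3%) and 5 of 16 for hypothalamus genes (31.3%).

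Some PVT-only peaks had a glial or vascular marker as their nearest gene, although the nuclei were sorted on NeuN. Ependymal and choroid plexus markers had 10 of 16 (62.5%), astrocyte markers 13 of 26, endothelial and mural markers 13 of 35 (37.1%), microglia markers 4 of 4 and oligodendrocyte markers 2 of 19 (10.5%). Inside the marker gene itself lay 5 of the 10 ependymal and choroid plexus peaks, 7 of the 13 astrocyte, 1 of the 13 endothelial and mural, 2 of the 4 microglia and 0 of the 2 oligodendrocyte peaks. Of the endothelial peaks, 9 were assigned to Cdh5, a cadherin gene, up to 604 kb away, and the astrocyte peak assigned to Sox9 lay 415 kb off. A peak in Ttr, the transthyretin gene of choroid plexus, held 22.5 and 31.6 CPM in Polg libraries and 19.4 and 34.4 CPM in WT libraries. A peak nearest to Cx3cr1, a microglial receptor gene, held 15.2 and 16.4 CPM in Polg libraries and 12.9 and 19.7 CPM in WT libraries. A peak in Slc1a2, the astrocytic glutamate transporter, held 45.1 and 37.8 CPM in Polg libraries and 33.7 and 39.3 CPM in WT libraries. Summed over the PVT-only peaks of each list, astrocyte markers held 145 and 136 CPM in Polg libraries and 117 and 150 CPM in WT libraries, and microglia markers 49.9 and 51.2 CPM in Polg libraries and 40.3 and 44.4 CPM in WT libraries. The part of other cells in the peak set was not tested.

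Over all genes, 5390 were nearest to at least 1 PVT-only peak, 2805 to exactly 1, 730 to 5 or more and 207 to 10 or more. The gene with most, Pik3c3, encodes a lipid kinase and had 70 beside 69 shared peaks, none of the 70 inside its span and the farthest 2245 kb away in the gene desert beside it. Of the other 12 leading genes after Rora and Zfhx3, all but Prmt6, with 24 beside 6 shared peaks and none inside its span of 4.90 kb, had PVT-only peaks within their own bodies. Fhit, a dinucleotide hydrolase gene, had 34 beside 29 shared peaks, Inpp4b, a phosphoinositide phosphatase gene, 29 beside 10, and Lsamp, which encodes a cell adhesion protein, 29 beside 37. Nxph1, which encodes a neurexin ligand, had 28 beside 2, Plcb4 27 beside 8, and Sntb1, a syntrophin gene, 26 beside 4. Rbfox1, a splicing regulator gene, had 27 beside 35, Spock1, a proteoglycan gene, 24 beside 31, Ctnna2, a neuronal catenin gene, 24 beside 49, and Celf2, an RNA-binding protein gene, 23 beside 56. Shared peaks outnumbered PVT-only peaks at Lsamp, Rbfox1, Spock1, Ctnna2 and Celf2, and COR peaks covered 164 kb of Celf2, against 136 kb in PVT. The strongest peak in Plcb4 held 84.7 and 84.1 CPM in Polg libraries and 122 and 99.9 CPM in WT libraries, 22.1 kb from the nearest peak of another region. Both Polg libraries lay below both WT libraries in it.

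Of the 15 peaks of highest CPM per kb, 8 spanned 151 bp, the narrowest width in the table. Outside predicted loci, the highest CPM among the 15 belonged to a peak nearest to Mogat1, an acyltransferase gene, at 110 and 65.6 CPM in Polg libraries and 89.2 and 82.5 CPM in WT libraries. Others lay in multigene clusters on chromosomes 13 and 14, such as a peak of 213 bp nearest to Serpinb9e at 25.4 and 12.98 CPM in Polg libraries and 22.6 and 23.0 CPM in WT libraries. Their counts are uncertain, because how reads that match several family members were counted is not given in the sources used here and sequence identity was not measured.

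Hairpins of 13 microRNAs lay in PVT-only peaks, of 919 autosomal hairpins searched, and 117 lay in shared peaks. Of the 13, 6 belonged to the imprinted microRNA region beside Rtl1 on chromosome 12, in 4 peaks. The mature 3p arms of 4 of them, from RefSeq, are shown because they identify the microRNA genes under these peaks, with the seed (bases 2 to 8) in capitals. All coordinates are on the plus strand of GRCm38.p6.
mmu-miR-431-3p, chr12:109590502-109590523: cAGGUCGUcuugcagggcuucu
mmu-miR-433-3p, chr12:109591781-109591802: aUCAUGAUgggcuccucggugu
mmu-miR-127-3p, chr12:109592888-109592909: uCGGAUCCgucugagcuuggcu
mmu-miR-370-3p, chr12:109618305-109618326: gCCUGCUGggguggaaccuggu
The 4 seeds differ from each other. One peak of 2559 bp held Mir431, Mir433 and Mir127, at 12.5 and 5.29 CPM in Polg libraries and 9.35 and 15.6 CPM in WT libraries. The peak at Mir370 held 10.8 and 6.75 CPM in Polg libraries and 7.60 and 6.85 CPM in WT libraries. The peak at Mir376c held 15.2 and 7.27 CPM in Polg libraries, against 18.1 and 16.4 CPM in WT libraries. The genotypes overlapped in the first and the second of these peaks and not at Mir376c, and none of the 4 peaks overlapped an ATAC peak.

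Open chromatin was called in 5171 of the 13893 PVT-only peaks (37.2%, 95% exact binomial interval 36.4% to 38.0%, counting error only), against 62.9% of shared peaks and 6.77% of the non-overlapping peaks below the floor. The share rose with width, from 17.8% of PVT-only peaks up to 500 bp to 77.2% of those over 4000 bp, and was below that of shared peaks in every width class. In the widest class it was 77.2% against 80.5%. With CPM it ran from 17.03% in the lowest class to 86.4% in the highest, against 25.4% to 90.1% of shared peaks. The difference between PVT-only and shared peaks was not tested.

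**Figure D4:**
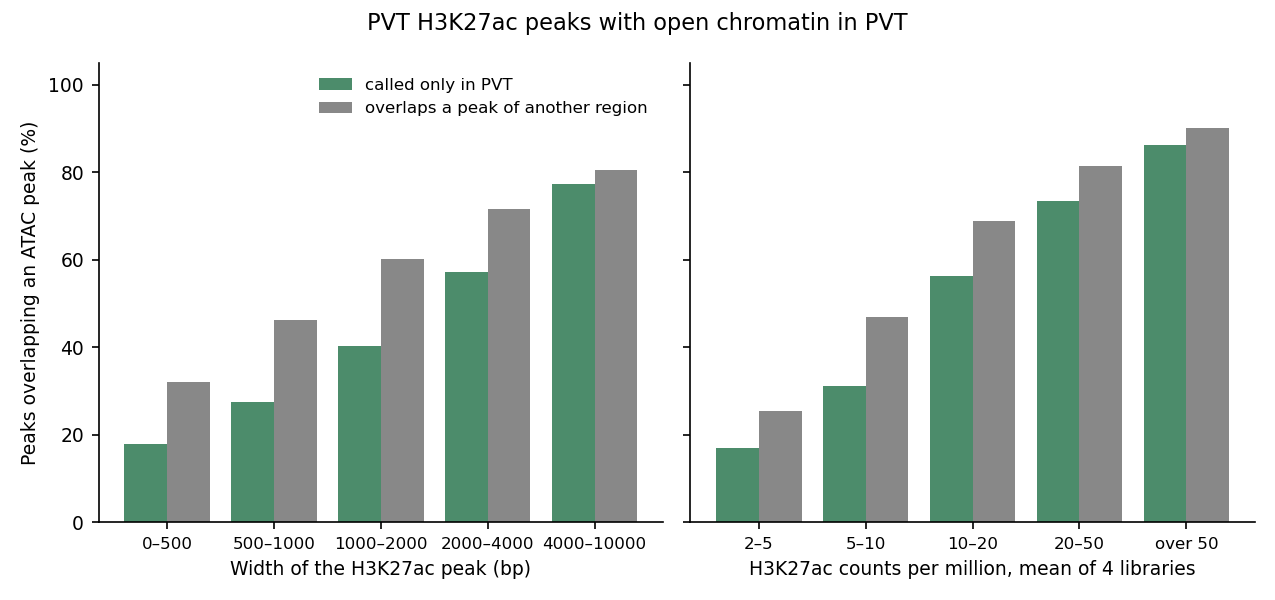
Percent of PVT H3K27ac peaks that overlapped an ATAC peak, by peak width in bp (left) and by H3K27ac CPM (right), for peaks called only in PVT and for shared peaks. PVT-only peaks stood below shared peaks in all 10 classes, by 77.2% against 80.5% among peaks over 4000 bp.

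ATAC signal over the PVT-only peaks, summed per kb of peak, was 1.95 and 2.61 CPM per kb in Polg libraries and 2.71 and 2.09 CPM per kb in WT libraries. Over shared peaks it was 4.08 and 4.95 CPM per kb in Polg libraries and 5.23 and 4.13 CPM per kb in WT libraries, so that it was lower over PVT-only peaks in 4 of 4 libraries. ATAC totals were 2932270 to 8040451 counts. Of the PVT-only peaks on promoter windows, 81.1% overlapped an ATAC peak, against 36.2% of the others. Of the 15 PVT-only peaks with the highest ATAC signal, 13 lay on promoter windows, among them those of Max, Gna11, Raver1 and Nup98, genes used in most cell types. H3K27ac over these 15 had a median of 9.01 CPM. The Max promoter peak held 5.88 and 8.42 CPM of H3K27ac in Polg libraries and 3.09 and 3.25 CPM in WT libraries.

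Genotype was compared next. The selection did not use the genotype labels, but its floor in each library removed peaks low in either genotype, so large changes could not enter in full: 13.9% of PVT-only peaks differed by 2-fold or more, against 9.78% of shared peaks with the same floor and 46.0% of all peaks tested. No PVT-only peak differed between Polg(D181A) and WT with edgeR's quasi-likelihood test at an adjusted p under 0.05 (0 of 13893), nor did any of the 121536 peaks tested (0%). At an unadjusted p under 0.05, 585 PVT-only peaks stood apart (4.21%), 214 higher and 371 lower in Polg, against 4.86% of shared peaks with the same floor and 8.09% of all peaks tested. With the replicate number as a block these shares were 3.63% of PVT-only peaks and 3.44% of all. DESeq2 called 734 PVT-only peaks, 329 higher and 405 lower in Polg, where it called 10.7% of all peaks. The 2 tools therefore differed on whether any peak passed. Both Polg libraries exceeded both WT libraries in 2700 PVT-only peaks (19.4%, against 19.7% of shared peaks and 24.1% of autosomal peaks) and lay below both in 2866 (20.6%, against 19.2% and 22.5%). The median log2 fold change, Polg over WT, was −0.08 over PVT-only peaks, with quartiles of −0.52 and 0.39 and a median standard error of 0.63. The labels do not say whether replicates came from separate animals, so these p-values measure only the spread between the libraries.

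**Figure D5:**
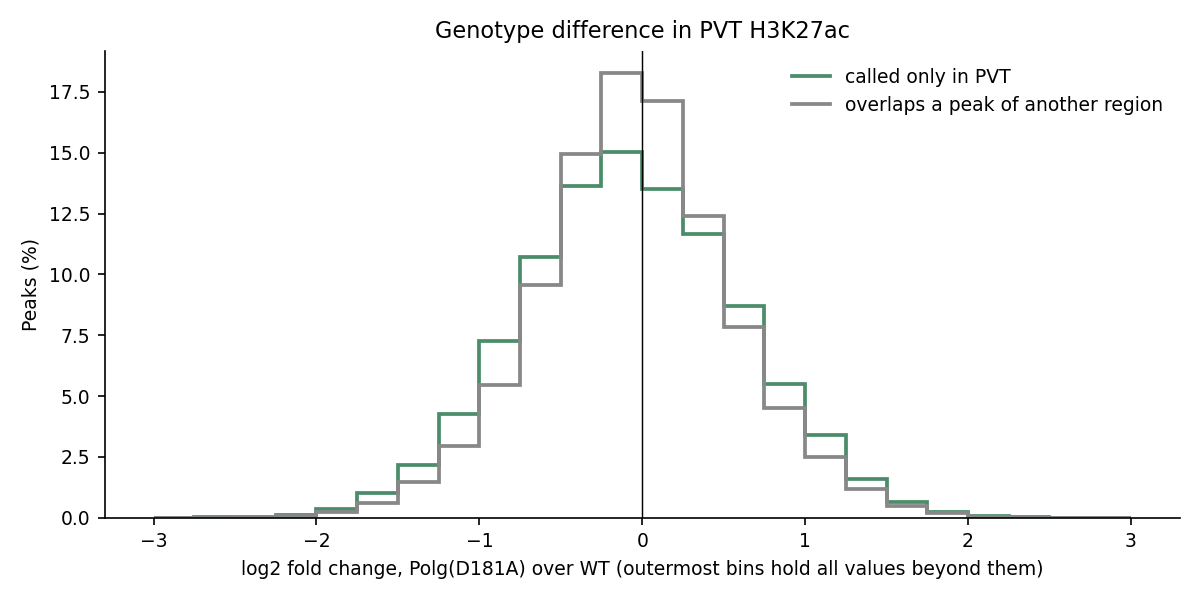
Distribution of the log2 fold change of H3K27ac, Polg(D181A) over WT, in percent of peaks per bin, for peaks called only in PVT and for shared peaks. Both distributions centre near 0, with medians of −0.08 and −0.05.

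The 5 PVT-only peaks with the smallest p are given by value. A peak 10.2 kb from Klf17, a Krüppel-like factor gene, held 3.79 and 4.19 CPM in Polg libraries and 23.3 and 24.5 CPM in WT libraries, a log2 fold change of −2.64 ± 0.38 (SE). A peak nearest to Kbtbd12 held 2.18 and 2.06 CPM in Polg libraries and 15.01 and 10.6 CPM in WT libraries. A peak in Grm4, a metabotropic glutamate receptor gene, held 2.50 and 2.44 CPM in Polg libraries and 12.9 and 12.1 CPM in WT libraries. All 3 lay lower in both Polg libraries, near the floor of the selection. A peak in Fnbp1 held 20.4 and 19.4 CPM in Polg libraries and 41.2 and 44.0 CPM in WT libraries, a log2 fold change of −1.15 ± 0.25 (SE). A peak nearest to Grm8, another metabotropic glutamate receptor gene, held 21.4 and 9.98 CPM in Polg libraries and 2.10 and 2.14 CPM in WT libraries. Each of the 5 had an adjusted p of 0.556 with edgeR's quasi-likelihood test.

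By list, log2 fold changes of the PVT-only peaks were positive in 88 of 207 for thalamic transcription factor genes (median −0.09) and in 33 of 52 for PVT and midline thalamus genes (median 0.19), against 6309 of 13893 in all. Glutamate and GABA receptor genes were positive in 68 of 166 (median −0.22) and Wnt pathway genes in 17 of 58 (median −0.21). Peaks of Tcf7l2 and Lef1 count in both the Wnt and the thalamic factor lists, and those of Slc17a6 in both the midline and the glutamate lists. At an unadjusted p under 0.05 with edgeR's test stood 10 peaks of the thalamic factors (4.83%) and 1 of the midline genes (1.92%). The glutamate and GABA list, which includes transporter genes, had 11 (6.63%) and the Wnt genes 4 (6.90%). These stood beside the 4.21% of PVT-only peaks and 8.09% of all peaks. No PVT-only peak had Polg itself as its nearest gene. One peak inside Polg, at chr7:79459447-79460701, overlapped no peak elsewhere and missed the floor through 1 WT library. It held 9.25 and 9.89 CPM in Polg libraries and 0.232 and 2.51 CPM in WT libraries. Both Polg libraries also lay above both WT libraries in the other peaks inside Polg, which overlapped peaks of other regions. The strongest of those held 13.5 and 14.9 CPM in Polg libraries and 3.57 and 4.61 CPM in WT libraries.

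In ATAC-seq, 0 of the 5844 tested ATAC peaks inside PVT-only peaks differed by genotype with edgeR's quasi-likelihood test, against 1 of 87600 overall (0.00114%). DESeq2 also called 0 of them, and 3 overall (0.00334%). At an unadjusted p under 0.05 there were 249 (4.26%, against 6.13% overall). The smallest p belonged to an ATAC peak nearest to Sec23ip, with 6.89 and 6.09 CPM in Polg libraries and 0.134 and 0.341 CPM in WT libraries. An ATAC peak nearest to Tlk1 was at 0 in both Polg libraries and at 4.82 and 3.41 CPM in WT libraries, and one nearest to Car8 at 0 and 0.249 CPM in Polg libraries and 5.75 and 5.12 CPM in WT libraries. An ATAC peak nearest to Habp2 held 11.02 and 16.8 CPM in Polg libraries and 3.61 and 3.41 CPM in WT libraries, and one nearest to Cplane2 19.3 and 16.8 CPM in Polg libraries and 5.08 and 6.48 CPM in WT libraries. The genotypes did not overlap in any of the 5, which follows from choosing them by smallest p. Each had an adjusted p of 0.704 with edgeR's test.

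In bulk RNA, fewer cells of a type and less RNA per cell cannot be told apart. RNA was in hand for 5270 of the 5390 nearest genes. RNA CPM used library totals scaled by a normalization factor (TMM), unlike the CPM of peaks. The median RNA per kb of gene span was higher where a gene had more PVT-only peaks, though single libraries overlapped between classes. In WT they ran from 0.0568 to 0.151 CPM per kb with none and from 0.110 to 0.189 with 5 to 9. Genes with none include those nearest to shared peaks only. In euthymic WT COX-positive libraries the median was 0.0596 CPM per kb over genes with none, 0.0892 with 1, 0.126 with 2 to 4, 0.145 with 5 to 9 and 0.189 with 10 or more. In euthymic Polg(D181A) COX-positive libraries the same classes had 0.0516, 0.0669, 0.107, 0.187 and 0.237 CPM per kb. Gene span grew alongside, with medians of 16.2, 34.7, 74.9, 159 and 351 kb, and its part in this order was not tested.

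Among the thalamic genes, RNA varied widely within groups. Rora had 84.3, 198, 211 and 525 CPM in depressive Polg COX-negative, 271, 367, 607 and 919 in depressive Polg COX-positive, 410, 481, 991 and 1089 in euthymic Polg COX-negative, 96.4, 197, 260 and 633 in euthymic Polg COX-positive and 112, 205, 236 and 619 CPM in euthymic WT COX-positive libraries. Zfhx3 had 46.3, 228, 371 and 432 CPM in euthymic Polg COX-positive libraries and 185, 240, 1835 and 2546 CPM in WT libraries. Tcf7l2 had 14.7, 54.3, 54.4 and 79.1 CPM in euthymic Polg COX-positive libraries and 10.7, 11.998, 14.9 and 40.9 CPM in WT libraries. Prox1 had 0.942, 1.01, 11.2 and 78.0 CPM in euthymic Polg COX-positive libraries and 0.876, 5.30, 5.51 and 18.03 CPM in WT libraries. The genotypes overlapped for each of these 4 genes. Slc17a6 had 27.1, 29.8, 30.7 and 106 CPM in euthymic Polg COX-positive libraries and 0.994, 5.20, 6.56 and 16.8 CPM in WT libraries, without overlap, with an adjusted p of 0.405 by edgeR's test.

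No nearest gene differed in RNA between euthymic COX-positive Polg(D181A) and WT libraries with edgeR's quasi-likelihood test (0 of 5063, where 0% of 28446 genes passed). At an unadjusted p under 0.05 there were 636 (12.6%, against 15.3% overall), and DESeq2 called 166, 95 higher and 71 lower in Polg, where it called 3.02% of genes. The smallest p belonged to Gtf2a1l, a germ cell transcription factor gene, at 1.65, 5.52, 2.46 and 0.942 CPM in Polg libraries and 20.6, 646, 1345 and 10.2 CPM in WT libraries. F11, the coagulation factor XI gene, was at 0.501, 0.485, 0.413 and 0.438 CPM in Polg libraries and at 0.242, 0.820, 1373 and 2.90 CPM in WT libraries, so that 1 WT library stood far above the other 3. Hao1, Nrbf2 and Lman2l followed, with their highest value in the same WT library. Without that library the log2 fold change was −1.51 for F11, against −9.54 with it, and −0.76 for Hao1, against −7.25. Adjusted p ran from 0.180 to 0.187 over these 5 with edgeR's test.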

How the data were processed

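H3K27ac peaks of PVT, COR, CP and NAC, ATAC peaks of PVT and genes of PVT RNA were given as raw counts per library, which the authors deposited. Tools listed in the submitters' processing notes are DESeq2, featureCounts of Subread, STAR and HOMER, on mm10. Whether peaks were called on pooled libraries is not given in the sources used here. For peaks, CPM was the count over the column total. For RNA, that total was taken over the tested genes and multiplied by a TMM factor, from 0.126 to 3.91 between libraries. The members and lists were chosen with earlier results of these data known. Overlap needed 1 bp. Genes and promoters came from RefSeq (GRCm38.p6), and 53620 of 53715 RNA gene IDs were matched to a symbol.

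Genotype was tested over all features of a table with edgeR 4.0.16 (quasi-likelihood test, TMM, Benjamini-Hochberg adjustment, threshold 0.05) in R 4.3.3, with DESeq2 1.42.0 as an alternative. Scripts were tested on simulated counts. Genes named are the 15 nearest to most peaks, the strongest peaks per list, those of highest signal, and the 5 of smallest p. The interval of the ATAC share covers counting error only and treats peaks as independent, which was not tested. No molecular identifiers are described. No genome was used, so peak sequences are not shown. Lists of genes number 19, and some genes are on more than 1 list.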

Additional observations from a re-analysis of the deposited data

Results flagged for a closer look

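RNA was checked in 40 combinations of a gene and a group of 4 libraries, drawn from the same 5 groups. In 13 of them 1 library stood apart from the other 3 by Dixon's criterion, each time as the highest. Chance flags about 1 in 20 groups where values are normal and independent. The combinations share libraries, CPM values are skewed and 5 of the genes were chosen by their p, so 13 of 40 cannot be read against that rate.

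Among genes nearest to many PVT-only peaks, Zfhx3 reached 1220 CPM in 1 depressive Polg COX-positive library, where the next had 368 CPM. Prox1 reached 78.0 CPM in 1 euthymic Polg COX-positive library, where the next had 11.2 CPM, and Tcf7l2 40.9 CPM in 1 WT library, where the next had 14.9 CPM. Lef1 reached 81.7 CPM in 1 depressive Polg COX-negative, 80.6 CPM in 1 euthymic Polg COX-negative and 2347 CPM in 1 WT library. Slc17a6 reached 94.4 CPM in 1 euthymic Polg COX-negative and 106 CPM in 1 euthymic Polg COX-positive library.

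Among the genes of smallest p, Lman2l reached 15.3 CPM in 1 euthymic Polg COX-positive library and 1617 CPM in 1 WT library. F11 reached 1373 CPM, Hao1 2837 CPM and Nrbf2 1981 CPM, each in 1 WT library.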

How the results depend on the processing

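The number of PVT-only peaks was 23442 with a floor of 1 CPM and 5466 with a floor of 5 CPM. The share with an ATAC peak was 32.0% when the ATAC centre had to lie inside, 43.7% with 500 bp added on each side, 27.3% at a floor of 1 CPM, 56.2% at 5 CPM, 28.9% with ATAC peaks of at least 2 CPM in each library and 39.9% for peaks with no other region's peak within 1000 bp.

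With DESeq2, 734 PVT-only peaks and the RNA of 166 nearest genes passed the threshold, against 0 with edgeR; the cause was not tested. Leaving out each library gave 0 to 0 calls among the peaks, their ATAC peaks and the nearest genes. With 1 library left out, the median log2 fold change of PVT-only peaks ran from −0.14 without Polg replicate 2 to 0.01 without WT replicate 1, against −0.08. For their ATAC peaks it ran from −0.18 to 0.03 without the same libraries, against −0.08. These fits leave 1 library in a genotype, so their counts at an unadjusted p are not given. For RNA, 360 nearest genes (7.03%, against 11.4% of all genes) stood at an unadjusted p under 0.05 without the WT library of highest F11. With all libraries it was 636 (12.6%, against 15.3%), each with edgeR's quasi-likelihood test. Same-numbered Polg and WT libraries did not deviate together (correlation −0.01 for H3K27ac and −0.05 for ATAC). With 2 libraries a genotype, each assay gave only 1 such correlation, so whether the numbers pair the libraries cannot be told. The replicate block gave 0 calls for H3K27ac, with 505 peaks at an unadjusted p under 0.05, and 0 for ATAC. RNA columns carry no replicate numbers, so no paired fit was made there.

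The 5 H3K27ac peaks named for genotype kept their direction in 45 fits, and all 5 passed with DESeq2. The 5 ATAC peaks kept direction and side in 44 fits, and the Tlk1 peak had no fit without WT replicate 1. Both sets were chosen by smallest p in these same libraries, and their genotypes did not overlap. A kept direction was therefore set by the choice and lends these peaks no support. Of the 5 RNA genes in 52 fits, Gtf2a1l and Lman2l passed with DESeq2, which gave no p-value for F11, Hao1 and Nrbf2. Nrbf2 ran from −8.04 to 0.66 (log2 fold change, −7.67 with all libraries) when 1 library was left out. The positive value was without that same WT library, which also brought F11 to −1.51, Hao1 to −0.76 and Lman2l to −3.33, against −6.31. DESeq2 size factors moved the median RNA log2 fold change over all genes to 0.19, against −0.01. With 2 libraries a genotype, the median standard error of a PVT-only peak's log2 fold change was 0.63.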
